A study of Homo sapiens with 30 samples.

Results

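The genes described here build and read the extracellular matrix of A375 cells: the 5 lysyl oxidases LOX, LOXL1, LOXL2, LOXL3 and LOXL4, and the 5 hyaluronan matrix genes HAPLN1, VCAN, HAS2, CEMIP and CD44. Their members were all probe sets annotated to exactly 1 of these 10 symbols, 37 of the 54675 probe sets in the deposited table, and the 10 genes are among 19775 with a single symbol there. The set was picked with measured values in view: LOXL4 for its change over culture time, and HAPLN1 and CEMIP for their response to MLN4924. For LOXL4 this was taken as the change between DMSO 1 h and DMSO 24 h, so its p-values elsewhere rest on that reading. Wherever a group whose values picked a gene enters a comparison, that gene is described with no test: HAPLN1 and CEMIP throughout, and LOXL4 where DMSO 1 h or DMSO 24 h enters.

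A375 cells were derived from a human melanoma and carry mutant BRAF, a kinase of the MAPK pathway. Cultures received 650 nM MLN4924, or 0.065% DMSO as the vehicle control, and were harvested for RNA after 1, 2, 4, 8 or 24 h. MLN4924 (pevonedistat) inhibits the enzyme that activates NEDD8, a ubiquitin-like protein that cullin-RING ubiquitin ligases need for full activity. Each of the 10 groups had 3 arrays (HG-U133 Plus 2.0), 30 in all, and the medium of every group held serum. The labels give replicate numbers but do not say that replicates were separate cultures, so p-values measure the spread between these arrays, which may be technical. In RNA from whole cultures, fewer cells of a type and less RNA per cell cannot be told apart.

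Lysyl oxidases are secreted copper-dependent amine oxidases that convert lysines of collagen and elastin to aldehydes, from which the covalent crosslinks of these fibres form. Hyaluronan is a long unbranched sugar polymer that HAS2 extrudes at the cell surface, that link proteins such as HAPLN1 lock to proteoglycans such as VCAN (versican), that CEMIP helps to break down, and that cells bind through the receptor CD44. In melanoma, both groups of proteins are studied for their part in the stiffness of the matrix and in invasion.

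The promoters of the 3 genes that chose the set are printed here because their transcript levels moved farthest. Each sequence is the 250 bases before the annotated start, from RefSeq on GRCh38.p14, written 5′ to 3′ on the gene's own strand. A RefSeq promoter entry was found for 8 of the 10 genes. LOXL4 lies on chr10:98247690-98268194, with its promoter at chr10:98268195-98268444 on the minus strand. HAPLN1 lies on chr5:83637805-83720855, with its promoter at chr5:83720856-83721105 on the minus strand. CEMIP lies on chr15:80779370-80951771, with its promoter at chr15:80779120-80779369 on the plus strand. Capitals mark matches to a searched motif on either strand.
LOXL4: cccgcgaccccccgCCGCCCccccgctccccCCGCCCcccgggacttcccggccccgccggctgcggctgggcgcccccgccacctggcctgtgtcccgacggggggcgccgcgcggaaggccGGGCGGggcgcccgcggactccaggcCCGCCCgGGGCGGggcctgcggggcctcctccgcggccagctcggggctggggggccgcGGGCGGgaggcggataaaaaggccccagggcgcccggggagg
HAPLN1: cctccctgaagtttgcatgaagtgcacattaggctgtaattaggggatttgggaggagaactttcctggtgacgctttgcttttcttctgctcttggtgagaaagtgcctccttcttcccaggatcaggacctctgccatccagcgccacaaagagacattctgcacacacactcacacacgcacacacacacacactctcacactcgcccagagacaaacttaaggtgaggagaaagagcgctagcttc
CEMIP: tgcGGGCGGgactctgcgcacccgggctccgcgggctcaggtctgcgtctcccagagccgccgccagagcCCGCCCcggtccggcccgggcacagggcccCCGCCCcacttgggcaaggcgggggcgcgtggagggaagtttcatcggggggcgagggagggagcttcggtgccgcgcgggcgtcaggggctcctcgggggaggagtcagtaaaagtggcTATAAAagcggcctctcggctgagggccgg

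The 3 promoters differed in base composition, with 86.4% G and C in LOXL4, 74.4% in CEMIP and 50.8% in HAPLN1, against a median of 58.0% over 35116 promoter windows of the same length. The GC box GGGCGG, found in 42.6% of all windows, matched at 6 places in LOXL4 and 3 in CEMIP. The TATA box TATAAA, found in 10.7% of all windows, matched in CEMIP 30 bases before the start. No match was found in these 3 windows for the AP-1 motif TGANTCA (in 6.6% of all windows), the TEAD motif GGAATG (11.9%), the E-box CACGTG (6.3%) or the ACGTG form of the hypoxia response element core (18.5%), which lies inside CACGTG. The GCGTG form of that core was not searched. HAPLN1 held no match to any of the 6 motifs, which says only that these letters are not in this window.

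Signals are quantile-normalized, in the linear unit of the deposited table, and changes are differences of log2(signal + 32), so changes of low signals are understated. A gene was represented by its probe set of highest mean, and it was called when limma's Benjamini-Hochberg adjusted p over 54613 probe sets was under 0.05. Levels are compared between groups for 1 probe set at a time, never between probe sets. In comparisons of MLN4924 with DMSO, fell and rose mean lower and higher in MLN4924 than in DMSO at the same time. A probe set was termed dim when all 10 of its group means lay under 36.49, the median of all normalized signals. Of the 37 probe sets 12 were dim: all 3 of LOX, the only 1 of LOXL1, 2 of 4 for LOXL2, 1 of 2 for LOXL4, 1 of 2 for CEMIP, 2 of 13 for CD44 and 2 of 5 for VCAN. No probe set of LOXL3, HAPLN1 or HAS2 was dim. The HAS2 representative had group means of 26.4 to 51.2, and the second HAS2 probe set, with group means of 11.3 to 37.7, passed only through MLN4924 4 h.

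Arrays within a group correlated at 0.983 to 0.990, and the array medians ran from 32.6 to 44 before normalization. The ratio of 3′ to 5′ signal of ACTB, a sign of RNA integrity, was 1.14 to 1.74 over the 30 arrays, with its 2 highest values, 1.68 and 1.74, in replicates 2 and 1 of DMSO 2 h. Melanoma identity was checked on 8 measured markers of the melanocyte lineage. MITF, SOX10, S100B, S100A1 and TYR were not dim, and the pigment genes PMEL, MLANA and TYRP1 were dim in every group. Some markers of other cell types passed the same cut, among them COL1A1, KRT14, PECAM1 and HBB, while others were dim. Passing the cut does not by itself mark identity. The receptor kinase AXL, a marker of dedifferentiated melanoma, had group means of 1506 to 3373.

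Most calls on representative probe sets between MLN4924 and DMSO were decreases, and most of these came at 8 or 24 h. Among the 7 genes tested at 1 h, limma called 0, also under every alternative setting run, and 0 had an unadjusted p under 0.05. At 1 h 0.0152% of the 19775 represented genes were called. Of the 8 genes tested at 2, 4 and 8 h, LOXL4 alone was called on its representative at 2 h and at 4 h, lower both times, where 0.157% and 1.31% of the represented genes were called lower. At 8 h LOXL4 and LOXL3 were called lower and HAS2 higher, against 6.07% of genes called lower and 7.52% called higher. At 24 h 3 of the 7 genes tested were called lower (LOXL2, LOXL3 and CD44) and 0 higher by limma, against 17.2% of genes called lower and 15.2% called higher. At an unadjusted p under 0.05 the counts at 24 h were 4 lower and 1 higher. No share of all genes was computed at that looser cut, so unadjusted counts here and below stand without a background. The drug's log2 effect was called lower at 24 h than at 8 h for 4 of the 7 genes (LOXL2, LOXL3, HAS2 and CD44), against 10.2% of genes, and lower at 8 h than at 4 h for LOXL4 among 8, against 0.571% of genes. The median log2 change of the genes tested was 0.01, −0.09, −0.04, 0.03 and −0.30 at 1, 2, 4, 8 and 24 h, against medians over all probe sets of 0.00 up to 8 h and 0.01 at 24 h. The split of all calls at 8 h depended on the scaling, since 52.4% of them were increases with quantile normalization, 73.3% with median centring and 41.7% with the signals as deposited.

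Over culture time in MLN4924, 4 of the 8 genes not picked on the drug were called lower at 24 h than at 1 h (LOXL2, LOXL3, LOXL4 and CD44) and 1 higher (VCAN), against 14.7% of genes called lower and 13.6% called higher. Over the same time in DMSO, 2 of the 7 genes not picked at all were called higher (LOXL3 and VCAN), against 8.93% of genes called higher. Lower calls by limma numbered 0 in DMSO, also at an unadjusted p under 0.05, against 7.56% of genes called lower. The median log2 change was −0.21 over the 8 genes in MLN4924 and 0.08 over the 7 genes in DMSO, both with a median near 0 over all probe sets (0.01 and −0.01). These comparisons share arrays with the drug comparisons at 1 h and 24 h, so the counts do not stand independently of each other.

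**Figure D1:**
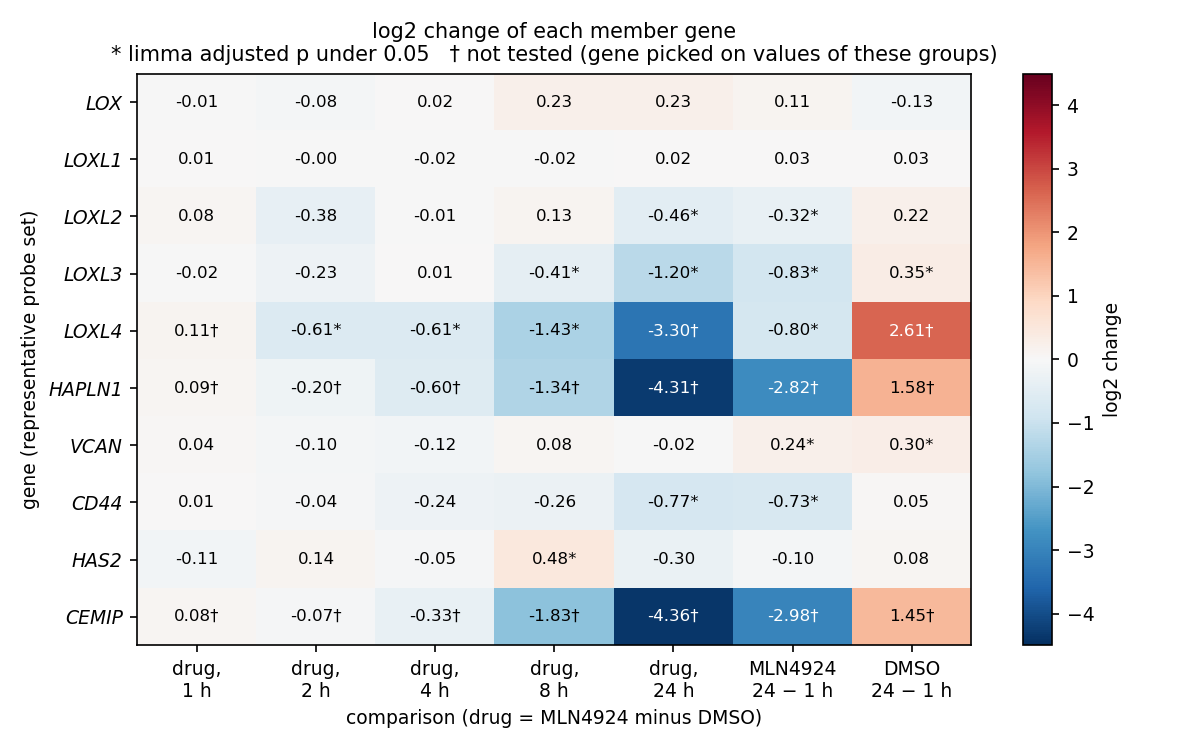
Log2 change of the representative probe set of each gene (rows) for MLN4924 minus DMSO at 5 times and for 24 h minus 1 h within MLN4924 and within DMSO (columns), with colour and number giving the change. HAPLN1 and CEMIP have the lowest values at 24 h, −4.31 and −4.36, and LOXL4 the highest over time in DMSO, 2.61, and the values marked as not tested are those of genes picked on the groups compared.

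LOXL4, a lysyl oxidase, was the member that accumulated most in control cultures. In MLN4924 its means were 709 ± 54.3, 699 ± 22.7, 579 ± 10.9, 405 ± 8.86 and 393 ± 9.34 at 1, 2, 4, 8 and 24 h (SD, n = 3 each), a decline with no late climb. The DMSO means were 656 ± 39.1, 1089 ± 117, 899 ± 45.6, 1146 ± 62.7 and 4166 ± 42.0 at the same times. At 24 h the 3 DMSO arrays read 4172, 4121 and 4204, against 695, 617 and 656 in DMSO at 1 h. The steep part of the DMSO climb lay between 8 and 24 h, and the 24 h signal was 6.35 times that at 1 h, a log2 change of 2.61 that is a description because it chose the gene.

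These levels in MLN4924 do not enter the DMSO comparison taken as the one that picked LOXL4. The 24 h arrays read 384, 393 and 403 in MLN4924, against 695, 769 and 664 in MLN4924 at 1 h, and the groups did not overlap (33.4% of all probe sets did not overlap in this comparison). LOXL4 fell by 0.80 on the log2 scale between these groups (SE 0.07, adjusted p = 2.78e-09).

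Between treatments, LOXL4 was already apart at 2 h. At 1 h the arrays overlapped, with 695, 769 and 664 in MLN4924 and 695, 617 and 656 in DMSO, and the log2 change was 0.11. At 2 h the MLN4924 arrays read 719, 704 and 674, against 1107, 1196 and 965 in DMSO. The groups did not overlap at 2 h, as for 11.9% of all probe sets, and LOXL4 was lower in MLN4924 by 0.61 (SE 0.07, adjusted p = 2.49e-05). From 1 h to 2 h its mean went from 709 to 699 in MLN4924 and from 656 to 1089 in DMSO. The 2 highest DMSO values at 2 h were those of replicates 1 and 2, the arrays with the highest ACTB ratio, and the part of RNA integrity in this result was not tested. With both left out, a choice made after seeing the data, LOXL4 was lower by 0.45 (SE 0.09) with an adjusted p of 0.0332. A fit to the 6 arrays of 2 h alone gave the same change with an adjusted p of 0.381.

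LOXL4 was lower by 0.61 again at 4 h (SE 0.07, adjusted p = 3.99e-06), with 587, 567 and 584 in MLN4924 and 851, 906 and 941 in DMSO. At 8 h it read 396, 413 and 406 in MLN4924, against 1211, 1086 and 1141 in DMSO, so that its mean was 2.83-fold lower and it fell by 1.43 (SE 0.07, adjusted p = 6.72e-13). At 24 h the mean was 10.6-fold lower in MLN4924, 393 against 4166, and the log2 change was −3.30. The 24 h and 1 h changes contain the DMSO arrays on which LOXL4 was picked and are not tested, whereas those at 2, 4 and 8 h use other arrays. The second LOXL4 probe set was dim (group means of 6.31 to 24.8) and was not called in any comparison tested.

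**Figure D2:**
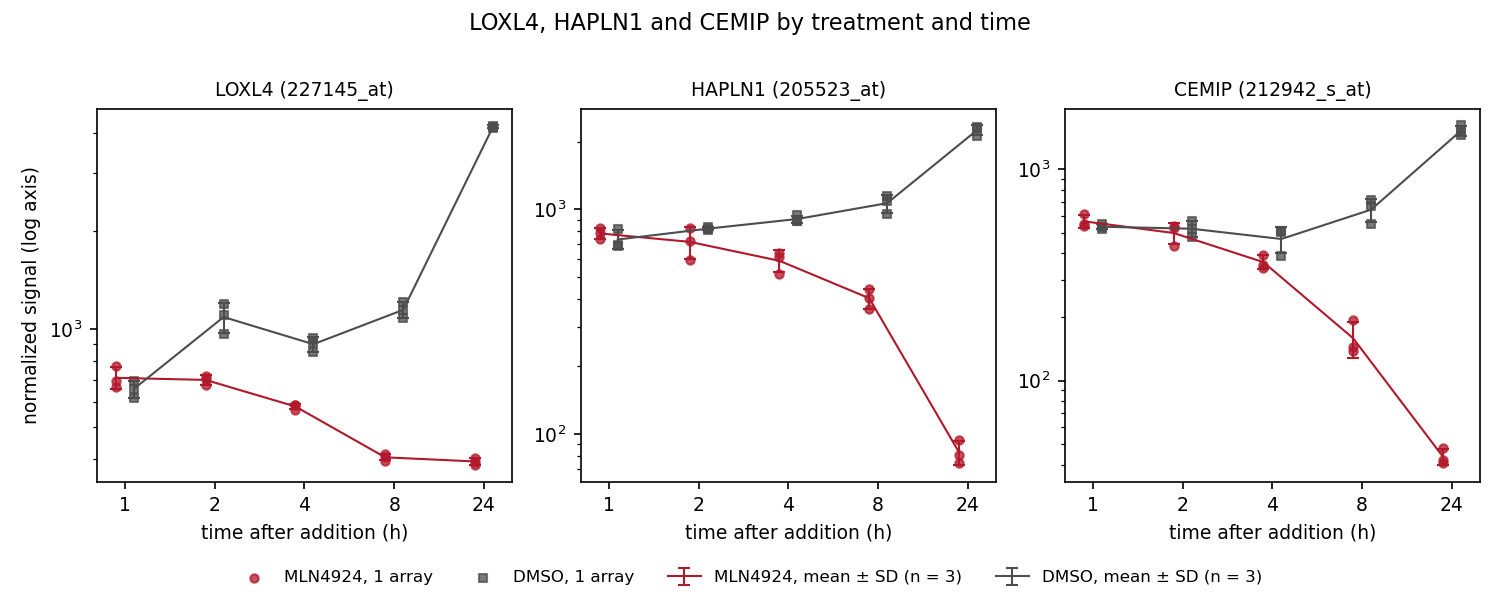
Normalized signal (log axis) of LOXL4, HAPLN1 and CEMIP against time after addition (1, 2, 4, 8 and 24 h, evenly spaced), with 1 point per array and lines and bars for the mean ± SD of 3 arrays in MLN4924 (red) and DMSO (grey). At 24 h all 3 genes are lowest in MLN4924, with means of 393, 83.1 and 43.6, and highest in DMSO, with means of 4166, 2250 and 1520.

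Ranked over the 10 groups, LOXL4 was highest in DMSO 24 h, then in DMSO 8 h, DMSO 2 h and DMSO 4 h. DMSO 8 h and DMSO 2 h overlapped. Next came MLN4924 1 h, MLN4924 2 h and DMSO 1 h, which overlapped as neighbours, then MLN4924 4 h. The lowest groups, MLN4924 8 h and MLN4924 24 h, overlapped each other and lay below all others.

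LOXL3, also a lysyl oxidase, took a similar course with a smaller size. At 24 h its arrays read 493, 470 and 491 in MLN4924, against 1078, 1201 and 1179 in DMSO. The groups were far apart relative to their spread, the mean was 2.38-fold lower in MLN4924, and LOXL3 fell by 1.20 (SE 0.08, adjusted p = 4.23e-11). At 8 h it averaged 661 ± 57.0 in MLN4924 and 889 ± 38.2 in DMSO (SD, n = 3 each), and fell by 0.41 (SE 0.08, adjusted p = 0.00157). With median centring the 8 h change was −0.24 with an adjusted p of 0.097, a value that moved by over 1.5 times. At 1, 2 and 4 h the changes were −0.02, −0.23 and 0.01 and none was called.

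Over time LOXL3 moved in opposite directions in the treatments. It averaged 484 ± 12.5 in MLN4924 at 24 h and 886 ± 39.3 in MLN4924 at 1 h (SD, n = 3 each), and fell by 0.83 (SE 0.08, adjusted p = 3.25e-08). In DMSO it averaged 1153 ± 65.4 at 24 h and 898 ± 78.8 at 1 h, and rose by 0.35 (SE 0.08, adjusted p = 0.00533), a call lost with only the arrays compared (0.0646). The drug's log2 effect was itself lower at 24 h than at 8 h by 0.78 (SE 0.12, adjusted p = 3.69e-05).

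LOXL2 had a late and small decrease. Its 24 h arrays read 466, 496 and 568 in MLN4924, against 685, 718 and 729 in DMSO. The groups did not overlap at 24 h, as for 36.8% of all probe sets, and LOXL2 fell by 0.46 (SE 0.11, adjusted p = 0.00236). At 2 h the arrays did not overlap either, with 684, 586 and 559 in MLN4924 and 793, 905 and 720 in DMSO, but the change of −0.38 was not called (SE 0.11, adjusted p = 0.177). The DMSO values of 793 and 905 were those of the arrays with the highest ACTB ratio, and the part of RNA integrity was not tested. At 4 h and 8 h the changes were −0.01 and 0.13, with overlapping arrays. LOXL2 fell by 0.32 in MLN4924 between 1 h and 24 h (SE 0.11, adjusted p = 0.0367), a call lost without MLN4924 1 h replicate 2 or 3 (adjusted p = 0.117 for each), or MLN4924 24 h replicate 1 (0.156) or replicate 2 (0.0992). It was also lost with median centring (0.0913), the signals as deposited (0.0542), an added 1 (0.0583) and only the arrays compared (0.0743). In DMSO it changed by 0.22 over the same time and was not called (adjusted p = 0.248). Its second probe set that was not dim changed by −0.15 at 24 h with no call.

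LOX, the founding member of the family, and LOXL1 were dim in every group. LOX group means lay between 8.09 and 14.9, and LOXL1 group means between 1.49 and 2.59. Neither was called in any comparison. LOX at 24 h read 15.8, 13.0 and 15.7 in MLN4924, against 1.46, 12.9 and 9.93 in DMSO, a change of 0.23. Leaving out DMSO 24 h replicate 2 gave a change of 0.32 with an adjusted p of 0.0314, in the direction opposite to the other called lysyl oxidases and at signals well under the median.

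**Figure D3:**
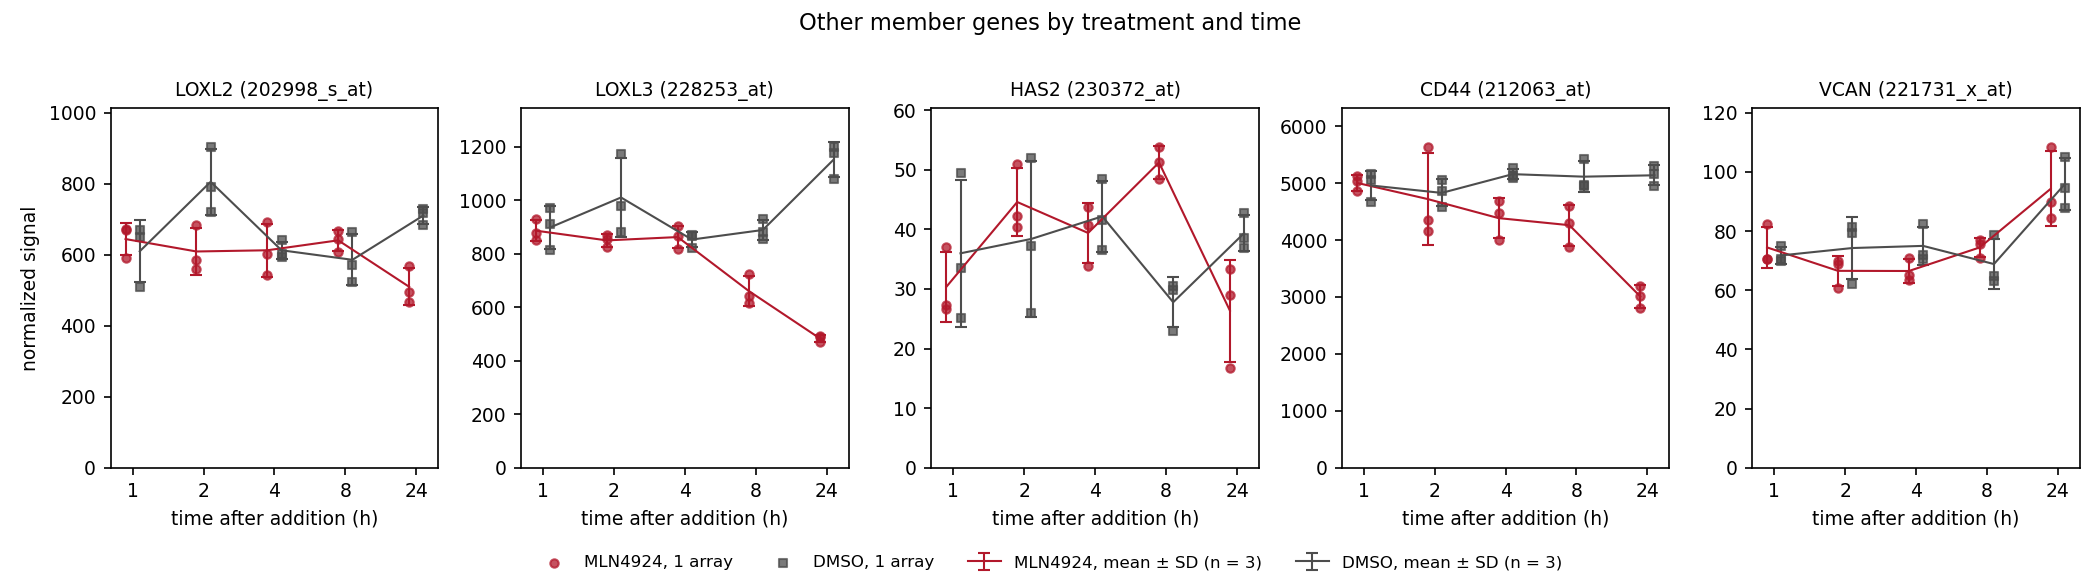
Normalized signal (linear axes from 0) of LOXL2, LOXL3, HAS2, CD44 and VCAN against time after addition (evenly spaced), with 1 point per array and lines and bars for the mean ± SD of 3 arrays in MLN4924 (red) and DMSO (grey). LOXL2, LOXL3 and CD44 lie lower in MLN4924 at 24 h (means of 510, 484 and 3009, against 711, 1153 and 5138 in DMSO), and VCAN lies close to DMSO at every time.

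HAPLN1, the link protein that binds hyaluronan and versican together, fell stepwise in MLN4924 and climbed stepwise in DMSO. In MLN4924 the means were 782 ± 43.2, 717 ± 118, 591 ± 65.9, 403 ± 40.7 and 83.1 ± 10.1 at 1, 2, 4, 8 and 24 h (SD, n = 3 each). In DMSO they were 735 ± 71.0, 821 ± 11.2, 906 ± 32.6, 1066 ± 97.6 and 2250 ± 112. The drug changes, which picked the gene and are not tested, were 0.09, −0.20, −0.60, −1.34 and −4.31 at the 5 times, and the 24 h mean was 27.1-fold lower.

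All 4 HAPLN1 probe sets were lowest in MLN4924 24 h and highest in DMSO 24 h. The steps between 1 h and 8 h were less regular in the others: the probe set with an overall mean of 354 averaged 328 in DMSO at 4 h, under its 388 at 2 h, and the one with the smallest 24 h change averaged 424 in MLN4924 at 2 h and 342 at 1 h. The 24 h arrays of the representative read 94.1, 81.2 and 74.1 in MLN4924, against 2320, 2311 and 2121 in DMSO. The probe set with the smallest 24 h change read 92.8, 68.8 and 76.1 in MLN4924, against 1272, 1314 and 1410 in DMSO. Over the 4 probe sets the 24 h changes ran from −4.31 to −3.62. The lowest readings, 30.8 to 41.6 in MLN4924 at 24 h, belonged to the probe set with an overall mean of 354 and lay about the median of all signals, so the size of that decrease is a lower estimate.

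Over culture time HAPLN1 was measured in the arrays on which it was picked, so its changes are not tested. In MLN4924 it averaged 83.1 at 24 h and 782 at 1 h, a log2 change of −2.82. In DMSO it averaged 2250 at 24 h and 735 at 1 h, a log2 change of 1.58, with 1.46 to 1.92 over the other 3 probe sets. In rank, DMSO 24 h, 8 h and 4 h stood apart at the top, MLN4924 24 h and 8 h at the bottom, and the groups from DMSO 2 h down to MLN4924 4 h overlapped as neighbours.

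VCAN, the large proteoglycan that HAPLN1 ties to hyaluronan, differed little between treatments at 24 h. VCAN and HAPLN1 are neighbours on chromosome 5, where 55502 bases lie between VCAN and the 3′ end of HAPLN1. At 24 h VCAN read 84.5, 89.8 and 109 in MLN4924, against 94.7, 105 and 87.9 in DMSO. These arrays overlapped, and the change was −0.02 (SE 0.08, adjusted p = 0.918), where that of HAPLN1 was −4.31. HAPLN1 was picked for its response to MLN4924, so the gap between the 2 genes follows from the picking and is not a result. None of the 3 VCAN probe sets that were not dim was called between treatments at any time, with changes of −0.33 to 0.15.

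On its representative, VCAN was slightly higher late in both treatments. It averaged 94.3 ± 12.6 in MLN4924 at 24 h and 74.5 ± 6.96 in MLN4924 at 1 h (SD, n = 3 each), a rise of 0.24 (SE 0.08, adjusted p = 0.0369). In DMSO it averaged 95.9 ± 8.69 at 24 h and 71.8 ± 2.87 at 1 h, a rise of 0.30 (SE 0.08, adjusted p = 0.0175). The other 2 probe sets that were not dim were not called over time, with changes of 0.21 and 0.03 in MLN4924 and 0.24 and −0.06 in DMSO. The MLN4924 call was lost with the signals as deposited (adjusted p = 0.0696), an added 1 (0.0533), only the arrays compared (0.159) or another variance model (0.0715), and without MLN4924 1 h replicate 1 (adjusted p = 0.126) or replicate 3 (0.127), or MLN4924 24 h replicate 3 (0.234, with a change of 0.16). The DMSO call was lost with only the arrays compared (0.0623), and without DMSO 1 h replicate 2 (0.0518) or replicate 3 (0.0646), or DMSO 24 h replicate 2 (0.103).

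HAS2, the main hyaluronan synthase of many mesenchymal cells, was the only member whose representative was called higher in MLN4924 than in DMSO, at 8 h. It read 51.3, 48.4 and 53.9 in MLN4924 at 8 h, against 29.8, 30.5 and 23.0 in DMSO. The groups did not overlap at 8 h, as for 23.7% of all probe sets, and HAS2 rose by 0.48 (SE 0.13, adjusted p = 0.0157). The call was lost without MLN4924 8 h replicate 3 (adjusted p = 0.0584) or DMSO 8 h replicate 3 (0.0782). At 24 h it read 29.0, 16.8 and 33.3 in MLN4924, against 38.5, 42.7 and 36.9 in DMSO, a change of −0.30 that was not called (adjusted p = 0.0958). The difference between the 24 h and 8 h effects was −0.78 (SE 0.18, adjusted p = 0.00404).

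The second HAS2 probe set was called at other times. It averaged 34.4 in MLN4924 and 13.1 in DMSO at 2 h, a rise of 0.55 (SE 0.12, adjusted p = 0.0452), where 0.211% of all probe sets were called higher. At 4 h it averaged 37.7 in MLN4924 and 13.2 in DMSO, a rise of 0.63 (SE 0.12, adjusted p = 0.00352), where 1.11% were called higher. This probe set counts as not dim only through that MLN4924 4 h mean, and its other group means lay under 36.49. Its calls are therefore given as a description of weak signals and not as support for the representative. At 8 h its change was 0.33 (adjusted p = 0.0963). Both probe sets thus had positive changes at 2 h and 8 h and negative ones at 24 h, −0.30 and −0.25, but they disagreed at 4 h, where the representative changed by −0.05.

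CEMIP, a secreted protein needed for hyaluronan breakdown in skin fibroblasts, was lowest of all members relative to DMSO at 24 h. In MLN4924 it averaged 567 ± 40.4, 499 ± 55.6, 363 ± 27.3, 159 ± 30.5 and 43.6 ± 3.70 at 1, 2, 4, 8 and 24 h (SD, n = 3 each). In DMSO it averaged 534 ± 14.8, 523 ± 43.5, 468 ± 67.8, 644 ± 82.2 and 1520 ± 80.4. The drug changes, which picked the gene and are not tested, were 0.08, −0.07, −0.33, −1.83 and −4.36.

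CEMIP arrays still overlapped at 4 h, with 354, 394 and 342 in MLN4924 and 505, 509 and 389 in DMSO. At 8 h they were apart, with 138, 144 and 194 in MLN4924 and 712, 666 and 552 in DMSO, a 4.06-fold lower mean. At 24 h they read 42.1, 47.8 and 40.9 in MLN4924, against 1495, 1610.5 and 1456 in DMSO, a 34.9-fold lower mean. Because the MLN4924 signals at 24 h were close to the median of all signals, that ratio may understate the change. Between 1 h and 24 h the log2 change of CEMIP was −2.98 in MLN4924 and 1.45 in DMSO, not tested because these arrays picked it. The second CEMIP probe set was dim, with group means of 2.28 to 2.86.

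CD44, the main cell surface receptor for hyaluronan, was called lower on its representative only at 24 h. At that time it read 3199.6, 3017 and 2811 in MLN4924, against 5167, 5297 and 4950.1 in DMSO. The mean was 1.71-fold lower, and CD44 fell by 0.77 (SE 0.09, adjusted p = 2.88e-07). Smaller negative changes came before. At 4 h the change of the representative was −0.24 with no call (SE 0.09, adjusted p = 0.254). At 8 h it read 4605, 3882 and 4296 in MLN4924, against 4960.5, 5430.4 and 4950.1 in DMSO, a change of −0.26 just outside the threshold (SE 0.09, adjusted p = 0.0676). That change was called without MLN4924 2 h replicate 2 (adjusted p = 0.0184) or replicate 3 (0.0498), or MLN4924 8 h replicate 1 (0.0472, with a change of −0.32). It was also called with a filter on low means (adjusted p = 0.0386), 1 probe set per gene (0.0476) or another variance model (0.0339). In MLN4924 the representative was lower by 0.73 at 24 h than at 1 h (SE 0.09, adjusted p = 8.31e-07), whereas in DMSO its change was 0.05 with no call (adjusted p = 0.846).

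The 11 CD44 probe sets that were not dim differed in timing. At 4 h 2 of the 11 were called lower and 0 higher, where 515 of all probe sets were called lower. The 2 had overall means of 383 (−0.505, SE 0.09, adjusted p = 0.00233) and 1306 (−0.25, SE 0.06, adjusted p = 0.0253). Changes over the 11 at 4 h ran from −0.505 to 0.10. At 8 h 6 of the 11 were called lower, against 4.64% of all probe sets, and the changes ran from −0.71 to −0.14. At 24 h 3 were called lower, against 12.6% of all probe sets, and the changes ran from −0.77 to 0.10. The largest 8 h change was that of the probe set with an overall mean of 383, which read 238, 206 and 238 in MLN4924, against 362, 428 and 385 in DMSO (log2 change −0.71, SE 0.09, adjusted p = 1.05e-05). At 24 h its change was −0.30 (SE 0.09, adjusted p = 0.017), and the difference between the effects at 24 h and 8 h was 0.40 (SE 0.13, adjusted p = 0.0463). For the representative that difference was −0.50 (SE 0.13, adjusted p = 0.0081), so the probe sets disagreed on whether the CD44 decrease grew or shrank. Another set, with an overall mean of 1306, read 1022, 1043 and 1011 in MLN4924 at 8 h, against 1248, 1196 and 1129 in DMSO, and was called lower (−0.21, SE 0.06, adjusted p = 0.0276), but changed by 0.00 at 24 h. Within MLN4924, 9 of the 11 were called lower at 24 h than at 1 h, against 10.9% of all probe sets. Within DMSO 2 of the 11, those with overall means of 383 and 287, were called lower, against 5.72%. Of the 2 dim probe sets, 1 was called higher at 24 h at signals of 5.48 in MLN4924 and 1.04 in DMSO.

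**Figure D4:**
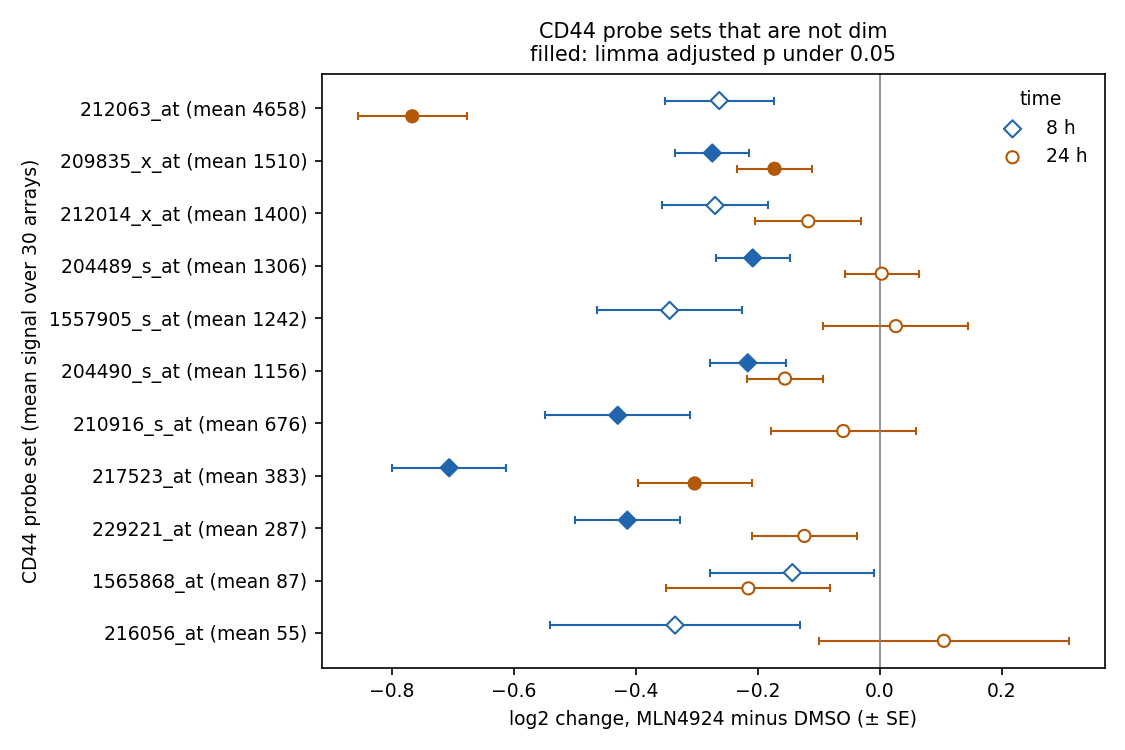
Log2 change (MLN4924 minus DMSO, ± SE) of the 11 CD44 probe sets that were not dim, sorted by mean signal, at 8 h (blue diamonds) and 24 h (orange circles), filled where the adjusted p was under 0.05. The representative, at the top, is lower at 24 h (−0.77) than at 8 h (−0.26), and most others are nearer to 0 at 24 h.

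Genes that share pathways with the members were taken from lists drawn up with earlier results of these data known. Of 14 measured genes of hyaluronan turnover and its other receptors, 6 were called lower at 24 h and none higher (HYAL3, the highest, changed by 0.34 with no call), against the 17.2% and 15.2% of all genes given above, with a list median of −0.16 against 0.00 over all represented genes. HMMR, a hyaluronan-binding protein that is also a mitotic spindle protein, averaged 215 in MLN4924 and 1667 in DMSO and fell by 2.80 (SE 0.10, adjusted p = 5.52e-16). PTPRZ1, a receptor phosphatase, averaged 11.2 in MLN4924 and 154 in DMSO and fell by 2.13 (SE 0.15, adjusted p = 3.15e-11). CEMIP2, a transmembrane relative of CEMIP, averaged 197 in MLN4924 and 878 in DMSO and fell by 1.98 (SE 0.11, adjusted p = 7.61e-13). CEMIP2 was already lower by 0.86 at 4 h (SE 0.11, adjusted p = 2.37e-05) and by 1.23 at 8 h (SE 0.11, adjusted p = 2.95e-08).

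TLR4, a receptor that can respond to hyaluronan fragments, changed direction. It averaged 612 in MLN4924 and 413 in DMSO at 2 h, a rise of 0.53 (SE 0.09, adjusted p = 0.00486), and was higher by 0.59 at 4 h (SE 0.09, adjusted p = 0.000256). At 24 h it averaged 133.1 in MLN4924 and 363 in DMSO and fell by 1.26 (SE 0.09, adjusted p = 6.95e-11). In MLN4924 6 of the 14 were called lower at 24 h than at 1 h and none higher, against 14.7% and 13.6% of all genes. Over time in DMSO, PTPRZ1 rose by 1.14 between 1 h and 24 h (SE 0.15, adjusted p = 5.74e-06) and CEMIP2 by 0.38 (SE 0.11, adjusted p = 0.0246), as CEMIP did, while TLR4 fell by 0.30 (SE 0.09, adjusted p = 0.0299).

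Of 19 proteoglycans, link proteins and versican proteases, 2 were called lower at 24 h and none higher, a share below the 17.2% of all genes called lower, with a median of −0.05. BCAN (brevican), a brain proteoglycan, averaged 115 in MLN4924 and 156 in DMSO and fell by 0.36 (SE 0.12, adjusted p = 0.0238), after a decrease of 0.56 at 8 h (SE 0.12, adjusted p = 0.00205). The other was the link protein gene HAPLN2, dim in every group, which fell by 0.47 (SE 0.17, adjusted p = 0.0409). HAPLN3 and HAPLN4 changed by 0.21 and −0.10 with no call. HAPLN1 was picked for its response to MLN4924, so its larger change than these link proteins follows from the picking and is not a result.

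**Figure D5:**
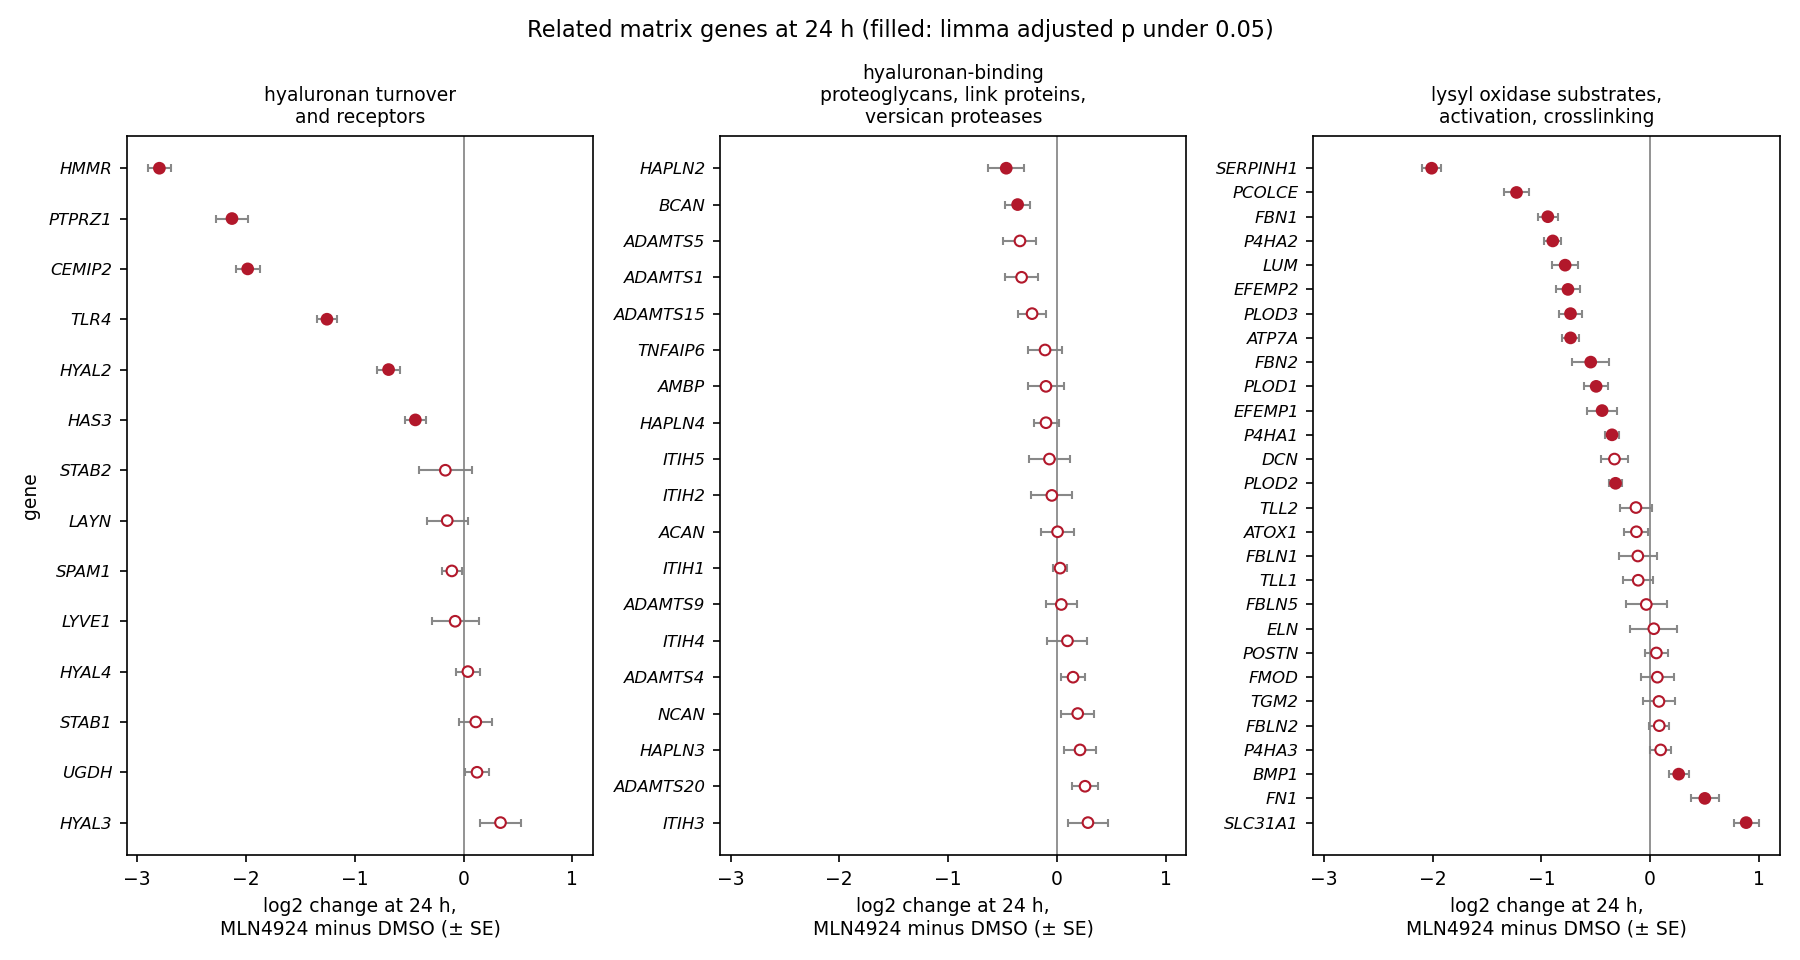
Log2 change at 24 h (MLN4924 minus DMSO, ± SE) of each measured gene of 3 related lists, filled where the adjusted p was under 0.05. HMMR (−2.80), PTPRZ1 (−2.13), SERPINH1 (−2.01) and CEMIP2 (−1.98) are lowest, and most genes of the middle list lie near 0.

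Of 28 genes that encode lysyl oxidase substrates, the activating proteases, or enzymes of collagen maturation and copper supply, 13 were called lower at 24 h, against 17.2% of all genes, and 3 higher, a share below the 15.2% of all genes, with a median of −0.22. SERPINH1, the collagen chaperone of the endoplasmic reticulum, averaged 95.7 in MLN4924 and 482 in DMSO and fell by 2.01 (SE 0.09, adjusted p = 1.29e-14). PCOLCE, which enhances procollagen processing, averaged 270 in MLN4924 and 676 in DMSO and fell by 1.23 (SE 0.11, adjusted p = 4.03e-09). The microfibril gene FBN1 fell by 0.94 (SE 0.09, adjusted p = 1.8e-08) and P4HA2, a prolyl hydroxylase subunit, by 0.90 (SE 0.08, adjusted p = 2.07e-09). The 3 that rose, named after their values were seen, were the copper importer SLC31A1 by 0.88 (SE 0.11, adjusted p = 1.3e-06), the fibronectin gene FN1 by 0.50 (SE 0.13, adjusted p = 0.00408) and BMP1, the protease that cuts the LOX propeptide, by 0.26 (SE 0.09, adjusted p = 0.0364).

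In MLN4924 9 of these 28 genes were called lower at 24 h than at 1 h and 1 higher (SLC31A1), against 14.7% and 13.6% of all genes. In DMSO 8 were called higher and 1 lower (FN1), against 8.93% and 7.56%, with a median of 0.16. EFEMP2, which binds LOX and elastin, averaged 135 in DMSO at 24 h and 63.1 at 1 h and rose by 0.81 (SE 0.11, adjusted p = 1.68e-05). LUM (lumican), PCOLCE and P4HA1 rose by 0.61, 0.56 and 0.51. These comparisons share the arrays of the drug comparisons.

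The patterns of the 3 picked genes over the 10 group means were set beside those of 1554 genes that passed a minimum level and a range of at least 1 on the log2 scale. HAPLN1 and CEMIP resembled each other (Pearson r = 0.980 over 10 groups), and LOXL4 was less like either (0.816 with HAPLN1 and 0.824 with CEMIP). HAPLN1 and CEMIP were both picked on the drug, and LOXL4 on culture time. This order of likeness is thus in part fixed by the picking and is not a result. Nearest to LOXL4 were PDE3A (0.986), NRP2 (0.984) and NIPAL3 (0.976). Nearest to HAPLN1 were TUBA1A (0.997), MUC15 (0.995) and SOX5 (0.993), and nearest to CEMIP were GNG2 (0.995), ARL6IP5 (0.994) and MMP16 (0.992). These are descriptions across group means that all share the 30 arrays, and the genes were selected for the highest values.

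Markers of cell state and of other cell types moved with the 24 h comparison, and their part in the results was not tested. The summed signal of the 8 melanocyte markers was 1016 to 1099 per array in MLN4924 at 24 h and 2424 to 2702 in DMSO, with 3 of 8 called lower (S100B, SOX10 and S100A1) and 3 of 8 dim. The 4 markers of dedifferentiated melanoma, none dim, summed to 3325 to 3708 in MLN4924 and 1603 to 1669 in DMSO, with AXL and EGFR called higher. AXL made up most of that sum, with group means of 1506 to 3373. The highest group means of NGFR, SOX9 and EGFR were 120.6, 75.5 and 119.1, and NGFR and SOX9 were not called. The 8 fibroblast markers summed to 324 to 368 in MLN4924 and 495 to 552 in DMSO, with PDGFRA, PDGFRB and LUM called lower and COL3A1 and PDGFRB dim. The 4 keratinocyte and epithelial markers summed to 105 to 132.7 in MLN4924 and 142 to 156 in DMSO, with KRT14 called lower and CDH1 and EPCAM dim. Sums of the 3 endothelial markers (97.8 to 155 in MLN4924, 128 to 134 in DMSO; VWF and CDH5 dim) and of the 3 blood markers (134 to 202 in MLN4924, 192 to 221 in DMSO; PTPRC dim) overlapped between treatments. No marker had a group mean of 0.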

How the data were processed

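Biotin-labelled cRNA from A375 cells was hybridized to 30 Affymetrix HG-U133 Plus 2.0 arrays. The deposited table holds 1 linear intensity per probe set and array, made by the authors with Affymetrix Expression Console per the submitters' processing notes, which name neither a release nor a summarization method. With 2% trimmed from each end, the arrays had the same mean to 4 significant digits, so the authors scaled the arrays. No detection calls were used, so depth is judged by signal alone, and the 3 arrays per group limit the precision.

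Groups, times and replicate numbers came from the sample titles. Symbols came from the platform annotation, updated through gene identifiers: 41097 probe sets had 1 symbol, 1801 several and 11777 none. Signals were quantile-normalized and transformed as log2(signal + 32). After leaving out 62 control probe sets, limma 3.58.1 in R 4.3.3 fitted the 10 group means to 54613 probe sets on the 30 arrays together, leaving 20 degrees of freedom beside 2.993 from the eBayes prior, with moderated statistics and Benjamini-Hochberg adjustment per contrast. Tests are two-sided. Counts in the report leave out genes picked on values of the groups compared, a stricter rule than the planned one, adopted after the data were seen. The fit was tested on simulated data.

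The members, gene lists and tests were chosen with earlier results of these data known. Named genes were all members, at most 4 called genes per list and comparison by the largest change, and the 3 genes most like each picked gene, passing over symbols of clones and open reading frames. Genes named outside that rule are HYAL3, HAPLN3, HAPLN4, SLC31A1, FN1, BMP1 and the called markers, chosen after their values were seen. Arrays with the same replicate number did not deviate together between treatments (correlations of −0.0885 to 0.0538 over 15 same-number pairs, none over 0.1), so no block was used. Alternatives were median centring, the signals as deposited, an added 1, a filter on low means, 1 probe set per gene, only the arrays compared, a replicate block, another variance model and each array left out.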

Additional observations from a re-analysis of the deposited data

Results flagged for a closer look

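For 5 genes the effect of MLN4924 differed between times by a test of the difference itself (limma, adjusted p over all probe sets). The LOXL4 effect was lower at 8 h than at 4 h by −0.82 on the log2 scale (SE 0.10, adjusted p = 4.14e-05), where 0.571% of genes were called lower in that comparison, and 50% of all calls there were increases, or 69.6% with median centring. LOXL3 (−0.78, SE 0.12, adjusted p = 3.69e-05), HAS2 (−0.78, SE 0.18, adjusted p = 0.00404), LOXL2 (−0.59, SE 0.15, adjusted p = 0.0115) and CD44 (−0.50, SE 0.13, adjusted p = 0.0081) had lower effects at 24 h than at 8 h. So 4 of the 7 genes tested were called lower in the comparison of 24 h with 8 h, against 10.2% of genes, and by limma 0 were called higher, also at an unadjusted p under 0.05. For CD44, 1 other probe set was called in the opposite direction (0.40). LOXL4, HAPLN1 and CEMIP had differences of −1.87, −2.97 and −2.53 between these times, which are not tested because values of these groups picked the genes. Without DMSO 2 h replicate 1, LOXL3 was also called lower at 8 h than at 4 h (−0.43, adjusted p = 0.0483), which raised the count for that comparison to 2.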

How the results depend on the processing

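Of 20 member comparisons called, 13 kept their direction and call under every alternative, 7 lost the call under at least 1, and 0 reversed. The counts here keep LOXL4, HAPLN1 and CEMIP in comparisons other than the one that picked each. They run over 8 genes for the drug, 10 over time in MLN4924 and 9 in DMSO. Calls of picked genes in groups that picked them thus enter the counts at 24 h, over time and for 24 h against 8 h. The steadiness of those counts is in part fixed by the picking. With such genes left out, the fit to all arrays called 3 genes at 24 h and 4 for 24 h against 8 h. That fit called 5 over time in MLN4924 and 2 in DMSO. Only the arrays compared, with fewer degrees of freedom, gave 0 genes called at 2 h (1 in the fit to all arrays) and 2 called over time in DMSO (4 in that fit). Leaving out each array in turn gave counts of 0 to 0 at 1 h, 1 to 1 at 2 h and at 4 h, 2 to 4 at 8 h, 4 to 5 at 24 h, 5 to 7 over time in MLN4924, 3 to 4 over time in DMSO, 1 to 2 for 8 h against 4 h, and 5 to 5 for 24 h against 8 h. The HAS2 call at 8 h was also lost with the signals as deposited (0.36, adjusted p = 0.0849), which called its 24 h change (−0.37, adjusted p = 0.0393). The LOXL3 call at 8 h was lost with only the arrays compared (adjusted p = 0.0559). Causes were not tested. A replicate block, although the numbers did not pair the arrays, changed no count: 0, 1, 1, 3 and 4 genes at the 5 times, 7 over time in MLN4924 and 4 in DMSO. Of the 15 MLN4924 arrays, 5 correlated best with their own number. The median change of all probe sets moved by under 0.1 under each scaling. Signals near or under 36.49, as for LOX, LOXL1 and HAS2, limit what could be detected.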
